A study of Homo sapiens with 12 samples.

Results

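Glycolysis and its oxygen-sensing control were followed at the RNA level through 37 genes, found by symbol among the 58735 genes of the deposited expression table. They cover the HIF subunits and prolyl hydroxylases (4 genes), glucose transporters (2), glycolytic enzymes (15), regulators of glycolytic flux (3), lactate output and pH (4), and other hypoxia-response targets (9). All were measured in the same 12 RNA-seq libraries, 3 in each of 4 groups. Of the 37 genes, 36 had a mean of at least 0.1 FPKM (fragments per kilobase of transcript, scaled to library size) over the 12 libraries and entered the tests, and the carbonic anhydrase gene CA12 did not.

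The cells were NCM460, an established line labelled as normal human colonic epithelium. The control group was in medium alone. The second group received TNF-α, an inflammatory cytokine. The third received TNF-α together with 5-OH-TMT, the quaternary tryptamine that the labels call bufotenidine. The fourth, labelled as HTRA2 knockdown, is taken here as given TNF-α and an siRNA against HTRA2. This gene encodes a mitochondrial serine protease that the study examined as the target of 5-OH-TMT. On that reading every treated group carried TNF-α. The same 3 TNF-α libraries served as the reference for both 5-OH-TMT and the knockdown. The study describes its knockdown against a control siRNA, but no library here carries such a label and the TNF-α libraries are not labelled as transfected. If they were not, transfection and loss of HTRA2 cannot be told apart. The sources used here also leave out whether the 3 knockdown libraries hold 1 siRNA or several. The study chose 1 non-toxic concentration of 5-OH-TMT for its work in these cells, but the labels give neither dose nor duration, of 5-OH-TMT or of TNF-α, for these libraries. Nothing says that the 3 libraries of a group came from separate cultures, so p-values measure the spread between these libraries, which may be technical.

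Glycolysis splits glucose into pyruvate in the cytosol, and lactate dehydrogenase turns pyruvate into lactate when less of it enters the mitochondria. Oxygen tension is read by prolyl hydroxylases (EGLN1, EGLN3), which mark HIF-α subunits for VHL-dependent destruction. When the mark is missing, HIF binds short core motifs beside its targets, among which are glucose transporters, most glycolytic enzymes, PDK1, CA9 and VEGFA. Control of HIF lies largely in protein stability, which RNA levels do not report.

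The libraries held 31008429 to 37624399 reads on genes. HTRA2 was at 15.4, 13.96 and 14.2 FPKM in the TNF-α libraries and at 7.44, 7.18 and 7.22 FPKM in the knockdown libraries, a log2 fold change of -0.98 (SE 0.087, limma adjusted p = 2.77e-05). TNFAIP3, read beside it for the TNF-α treatment, was at 1.12 to 1.31 FPKM in medium and 27.4 to 28.9 FPKM with TNF-α. Its level was 24.1 to 40.4 FPKM with 5-OH-TMT and 55.85 to 59.9 FPKM in the knockdown. Epithelial markers summed to 2160 to 2744 FPKM per library over 6 genes, mostly KRT8 (886.7 to 1315 FPKM) and KRT18 (972.4 to 1298 FPKM). EPCAM, CDH1 and CLDN4 lay between 37.96 and 88.36 FPKM, and KRT19 between 1.91 and 4.36 FPKM. The colon markers CDX1, CDX2, VIL1, CDH17, KRT20 and LGALS4 summed to no more than 0.195 FPKM in any library, and CDX2 was listed at 0 in all 12. The colonic label was thus not visible in these markers. The mitochondrial share of reads was 2.95% in knockdown replicate 2 and 3.69% to 4.68% in the other libraries. These are bulk samples, in which fewer cells of a kind and less RNA per cell cannot be told apart.

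The promoters of 34 of the 37 genes were matched in the RefSeq table (GRCh38.p14). The 250 bases before each start were searched for the HIF core motif, written as ACGTG or GCGTG on either strand (CACGT or CACGC when read on the other), with overlapping matches joined. The core was present in 22 of the 34 (64.7%) and in 15172 of all 35116 promoters of that length (43.2%). ACGTG alone was present in 13 of the 34 (38.2%) and in 18.5% of all promoters. Every form of the motif holds the letters CG, and the promoters compared were not matched for base composition. A match is a string of letters and no evidence of binding. The promoters printed are those of the 8 genes with an entry that were called in some comparison, followed by LDHA and PGK1, which were not called and held 3 matches each. No relation between the letters and the expression changes was tested. Capitals mark the core and its overlaps.
HK2: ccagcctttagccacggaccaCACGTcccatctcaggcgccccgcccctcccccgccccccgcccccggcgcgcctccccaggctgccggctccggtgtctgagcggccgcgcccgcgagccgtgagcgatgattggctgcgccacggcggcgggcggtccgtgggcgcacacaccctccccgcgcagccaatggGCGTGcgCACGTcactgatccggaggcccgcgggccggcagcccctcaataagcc
ANGPTL4: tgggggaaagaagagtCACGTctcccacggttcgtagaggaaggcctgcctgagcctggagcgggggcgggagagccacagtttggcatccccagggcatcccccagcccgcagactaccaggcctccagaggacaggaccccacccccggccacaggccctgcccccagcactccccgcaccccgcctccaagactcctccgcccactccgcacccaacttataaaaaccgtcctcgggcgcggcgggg
CA9: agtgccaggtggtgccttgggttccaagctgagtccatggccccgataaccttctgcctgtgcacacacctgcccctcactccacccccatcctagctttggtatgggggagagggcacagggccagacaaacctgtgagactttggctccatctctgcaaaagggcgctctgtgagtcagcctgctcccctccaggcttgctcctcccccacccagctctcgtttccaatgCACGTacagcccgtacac
P4HA2: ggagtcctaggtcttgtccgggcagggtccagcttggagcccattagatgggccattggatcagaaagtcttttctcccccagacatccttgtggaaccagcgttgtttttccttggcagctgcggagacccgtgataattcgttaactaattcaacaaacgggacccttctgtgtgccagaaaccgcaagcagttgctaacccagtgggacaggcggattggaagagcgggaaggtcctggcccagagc
EGLN3: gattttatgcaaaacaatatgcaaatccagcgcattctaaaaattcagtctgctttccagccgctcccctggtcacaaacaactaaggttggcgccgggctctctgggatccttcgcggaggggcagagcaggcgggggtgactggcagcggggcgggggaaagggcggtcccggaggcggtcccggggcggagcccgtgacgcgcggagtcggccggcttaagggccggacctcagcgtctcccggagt
PFKFB3: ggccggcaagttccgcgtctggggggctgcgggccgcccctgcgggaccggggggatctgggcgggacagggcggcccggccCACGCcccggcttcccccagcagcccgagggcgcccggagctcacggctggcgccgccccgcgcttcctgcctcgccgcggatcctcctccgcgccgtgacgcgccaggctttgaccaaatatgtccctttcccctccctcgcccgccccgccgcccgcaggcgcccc
KDM3A: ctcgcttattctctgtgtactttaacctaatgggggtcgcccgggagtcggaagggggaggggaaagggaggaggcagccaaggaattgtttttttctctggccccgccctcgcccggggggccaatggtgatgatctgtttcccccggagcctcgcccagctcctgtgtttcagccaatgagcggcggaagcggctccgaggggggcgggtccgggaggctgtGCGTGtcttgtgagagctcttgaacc
PKM: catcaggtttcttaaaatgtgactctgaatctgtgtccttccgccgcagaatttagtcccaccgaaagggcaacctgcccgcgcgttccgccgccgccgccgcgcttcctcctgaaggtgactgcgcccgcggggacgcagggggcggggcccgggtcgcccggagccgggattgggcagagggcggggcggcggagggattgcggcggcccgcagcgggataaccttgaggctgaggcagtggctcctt
LDHA: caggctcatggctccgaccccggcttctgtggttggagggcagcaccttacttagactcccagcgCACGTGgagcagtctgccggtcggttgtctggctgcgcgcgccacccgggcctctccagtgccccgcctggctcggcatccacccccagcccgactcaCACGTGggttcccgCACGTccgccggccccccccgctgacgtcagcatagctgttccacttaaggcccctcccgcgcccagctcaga
PGK1: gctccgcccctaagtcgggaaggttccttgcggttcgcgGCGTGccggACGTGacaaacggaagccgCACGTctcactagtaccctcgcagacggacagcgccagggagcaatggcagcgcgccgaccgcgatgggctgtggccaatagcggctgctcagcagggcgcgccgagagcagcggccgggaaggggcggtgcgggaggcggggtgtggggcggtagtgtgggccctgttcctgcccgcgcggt
The HK2 stretch is chr2:74833877-74834126 on the plus strand, with matches beginning 229, 55 and 48 bases before the start. The ANGPTL4 stretch (chr19:8363905-8364154, plus strand) holds 1 match, 234 bases before the start. The CA9 stretch (chr9:35673678-35673927, plus strand) holds 1 match, 18 bases before the start. PFKFB3 (chr10:6144671-6144920, plus strand) and KDM3A (chr2:86441121-86441370, plus strand) hold 1 each, 168 and 26 bases before the start. P4HA2 (chr5:132227092-132227341), EGLN3 (chr14:33951075-33951324) and PKM (chr15:72231191-72231440), all on the minus strand, have no match in the window. LDHA (chr11:18394313-18394562) and PGK1 (chrX:78103998-78104247) are on the plus strand. SLC2A3, VEGFA and NDRG1 are named only.

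Levels of the 37 genes spanned several orders of magnitude. The 8 with a mean of at least 100 FPKM were SLC2A1, a glucose transporter found in most cells, the lower-glycolysis enzymes TPI1, GAPDH, PGK1, PGAM1, ENO1 and PKM, and LDHA, which makes lactate. GAPDH, which oxidises glyceraldehyde 3-phosphate, was highest, at 2086 to 3054 FPKM. At the entry of the pathway the levels were lower by far, with HK1 at 33.5 to 40.2 FPKM and HK2 at 14.2 to 30.1 FPKM. Phosphofructokinase RNA was mostly PFKL (27.6 to 38.2 FPKM) and PFKM (9.67 to 14.9 FPKM), while PFKP lay between 0.206 and 0.658 FPKM. CA12 had 0 to 10 reads per library, which leaves no room for a comparison, and was listed at 0 in medium replicate 1 and knockdown replicate 2.

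**Figure D1:**
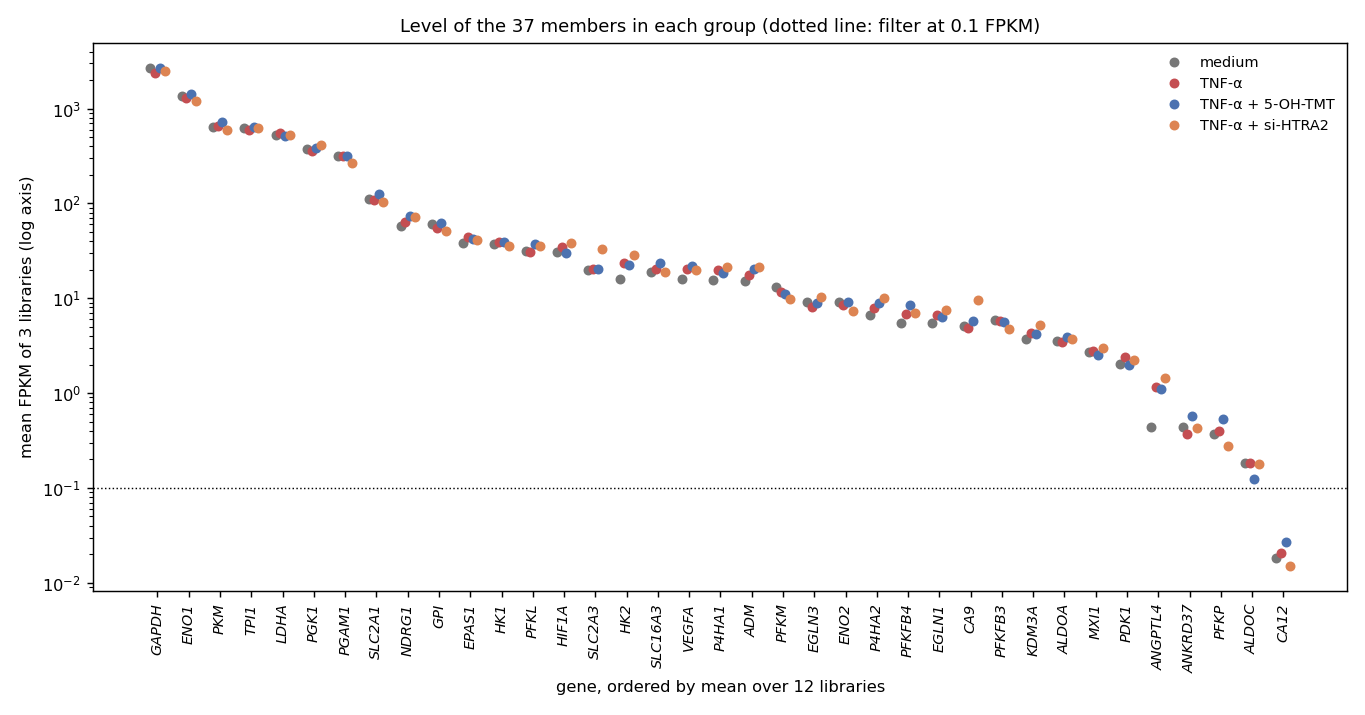
Mean FPKM of the 3 libraries in each group (log axis) for the 37 genes, ordered by the mean over all 12 libraries. The dotted line is the filter at 0.1 FPKM, below which only CA12 falls. The 4 group means of a gene mostly lie close together, with visible gaps for HK2, SLC2A3, CA9 and ANGPTL4.

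Aldolase was an exception among the abundant steps. ALDOA, the aldolase of most cells, was at only 2.88 to 4.53 FPKM. Of its 3916 annotated exon bases (chr16:30064164-30070457, plus strand), 1657 are shared on the same strand with the overlapping gene AC093512.2, so its level is uncertain, and the effect of the counting rule on it was not tested. Genes named as processed copies were low beside the abundant enzymes, the highest for TPI1, whose copies summed to 3.86% of the gene. How reads that match both a gene and its copies were counted was not tested.

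The abundant genes moved together from library to library within a group. Replicate 2 held the highest value of its group for 7 of the 8 genes above 100 FPKM in medium, 6 with TNF-α and 5 with 5-OH-TMT. Replicate 3 held the lowest value for 7, 7 and 6 of the 8 in the same order. All 8 were highest in knockdown replicate 3 among the knockdown libraries. Relative to the TNF-α mean, their median was 94.2% to 114% for medium, 95.1% to 105% for TNF-α, 107% to 112% for 5-OH-TMT and 86.4% to 105% for the knockdown. Counts over these genes are therefore counts over values that share their libraries. For the 33 genes with a mean of at least 1 FPKM, the median coefficient of variation within a group was 9% for medium, 6.72% for TNF-α, 4.78% for 5-OH-TMT and 7.11% for the knockdown.

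**Figure D2:**
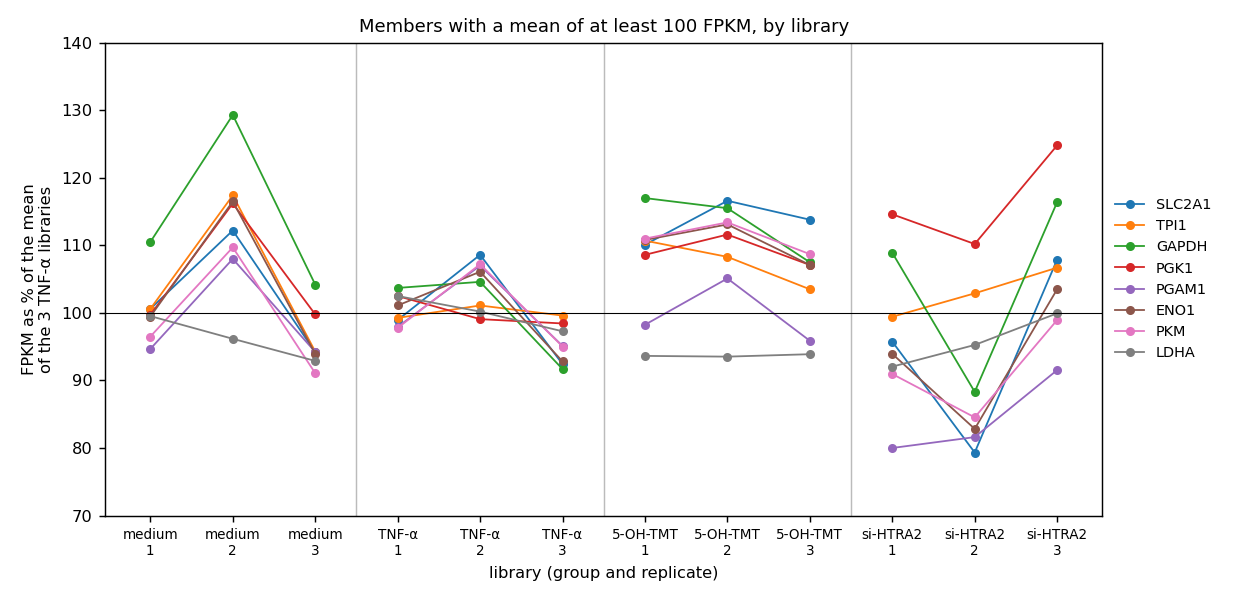
FPKM of the 8 genes with a mean of at least 100 FPKM in each library, as a percentage of that gene's mean in the 3 TNF-α libraries. Lines join the 3 libraries of a group to trace a gene and imply no order. Most lines peak at medium replicate 2 (GAPDH at 129%) and dip at knockdown replicate 2 (SLC2A1 at 79.3%).

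TNF-α against medium addressed which of these genes respond to the cytokine. HK2, VEGFA and ANGPTL4 rose and no gene fell (3 of 36 at a limma adjusted p under 0.05, where 4.1% of all 18079 genes tested were called, 3.22% higher). HK2, the inducible hexokinase that commits glucose to metabolism, was at 17.0, 16.3 and 14.2 FPKM in medium and at 23.4, 24.7 and 22.5 FPKM with TNF-α. Every TNF-α library lay above every medium library, and the log2 fold change was 0.57 (SE 0.085, adjusted p = 0.00182). It was the only glycolytic enzyme of 15 called.

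VEGFA, the endothelial growth factor, was at 17.0, 16.0 and 15.5 FPKM in medium and at 20.6, 20.2 and 21.1 FPKM with TNF-α. The groups did not overlap, and the change was small next to that of HK2, at a log2 fold change of 0.35 (SE 0.068, adjusted p = 0.0107). ANGPTL4, a secreted inhibitor of lipoprotein lipase, was low, at 0.535, 0.389 and 0.382 FPKM (31 to 46 reads) in medium. With TNF-α it was at 0.846, 1.37 and 1.26 FPKM (77 to 117 reads). Its log2 fold change, on the scale of FPKM plus 0.1 used throughout, was 1.22 (SE 0.21, adjusted p = 0.0043), the only change of at least 2-fold among the 36 (2.73% of all genes reached 2-fold at an unadjusted p of at most 0.05). With a pseudocount of 1 the log2 fold change was 0.58 (adjusted p = 0.0116), below 2-fold. In a fit of these 2 groups alone its adjusted p was 0.0573.

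The remaining glycolytic enzymes were not called. Their fitted changes ran from -0.19 for GAPDH (95% interval -0.45 to 0.07) to 0.12 for PFKP (-0.45 to 0.69), and summed over the 15 enzymes the level was 6177 ± 668 FPKM in medium and 5756 ± 317 FPKM with TNF-α (SD, n = 3, exact permutation p = 0.5, two-sided). Most of that sum was GAPDH and ENO1. The glucose transporters were level within narrow intervals, with SLC2A3 at 0.04 (-0.09 to 0.17) and SLC2A1 at -0.03 (-0.26 to 0.20). Among the hydroxylases, EGLN1 was at 5.04 to 5.84 FPKM in medium and 6.33 to 7.33 FPKM with TNF-α, and its change of 0.30 (log2) missed the threshold (adjusted p = 0.121). Neither HIF1A itself (0.19, adjusted p = 0.514) nor EPAS1 (0.21, adjusted p = 0.139) passed.

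Over all 36 genes the median log2 fold change was 0.05, beside -0.002 over all genes. The TNF-α libraries lay wholly above medium for 7 of the 36 and wholly below for 0, where all genes gave 11.1% and 8.74%. An unadjusted p under 0.05 was found for 11 of the 36, beside 14.8% of all genes. The 9 other hypoxia-response targets had a median of 0.22, with 8 of 9 above 0, and the 3 regulators of flux one of 0.24. The summed level of the targets was 119 ± 4.09 FPKM in medium and 138 ± 11.7 FPKM with TNF-α (exact p = 0.1, the smallest that 3 against 3 allows). The sum of 3 endothelial markers moved in the same comparison, from 0.492 to 0.597 FPKM in medium to 1.43 to 1.57 FPKM with TNF-α. PECAM1 and VWF did not exceed 0.182 and 0.1055 FPKM in any library, so the rise lay mostly in CDH5. CDH5 was at 0.292 to 3.34 FPKM over the 12 libraries. The part of these markers in the result was not tested.

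**Figure D3:**
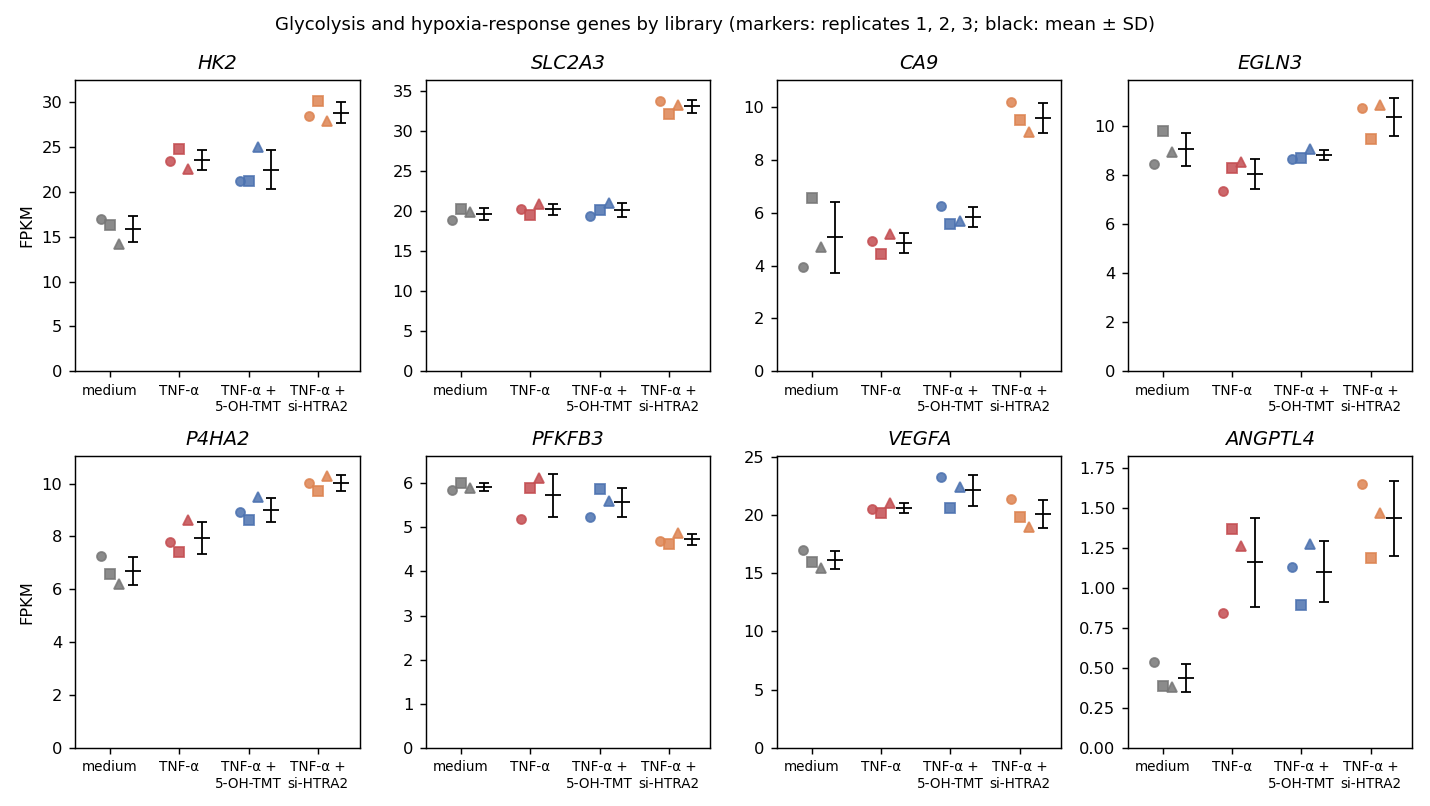
FPKM of 8 genes in each library by group, with the mean and SD of 3 libraries in black and axes from 0. HK2, VEGFA and ANGPTL4 step up from medium to TNF-α, whereas SLC2A3 and CA9 do not and lie above every other library in the knockdown. CA9 is also slightly higher with 5-OH-TMT (5.56 to 6.25 FPKM) than with TNF-α (4.44 to 5.20 FPKM).

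5-OH-TMT against TNF-α addressed whether the compound shifted the pathway in TNF-α-treated cells. None of the 36 genes was called by limma, where 0.0387% of all genes tested were (7 of 18079, 0.0332% higher and 0.00553% lower). None reached 2-fold either, beside 1.5% of all genes. At an unadjusted p under 0.05 there were 5 of 36, beside 20.1% of all genes. The 5 are given as values, since none passed.

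PFKFB4 encodes an enzyme that controls fructose 2,6-bisphosphate, the activator of phosphofructokinase. It was at 6.07, 7.36 and 7.07 FPKM with TNF-α and at 8.36, 8.59 and 8.33 FPKM with 5-OH-TMT, and the groups did not overlap (log2 fold change 0.30, SE 0.088, adjusted p = 0.12). PFKFB4 shares 289 exon bases on the same strand with UCN2, whose mean was 2.91 FPKM with TNF-α and 5.599 FPKM with 5-OH-TMT (log2 fold change 0.92, adjusted p = 0.0695), and the part of shared reads was not tested. PFKL, the liver-type phosphofructokinase, was at 30.4, 32.0 and 30.9 FPKM with TNF-α and at 38.1, 36.9 and 37.2 FPKM with 5-OH-TMT. The groups were well apart relative to their spread, but the log2 fold change of 0.26 (SE 0.095) had an adjusted p of 0.16, and it reached 0.0414 when the 2 groups were fitted alone.

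PDK1, the kinase that closes pyruvate dehydrogenase, was at 2.33, 2.47 and 2.35 FPKM with TNF-α and at 1.93, 1.83 and 2.12 FPKM with 5-OH-TMT. All 3 treated libraries were lower (log2 fold change -0.27, SE 0.098, adjusted p = 0.161). NDRG1, a stress-responsive gene, was at 66.9, 55.9 and 67.3 FPKM with TNF-α and at 77.4, 70.3 and 71.8 FPKM with 5-OH-TMT (log2 fold change 0.21, SE 0.092, adjusted p = 0.232). P4HA2, a collagen prolyl 4-hydroxylase subunit, was at 7.80, 7.42 and 8.60 FPKM with TNF-α and at 8.91, 8.61 and 9.49 FPKM with 5-OH-TMT (log2 fold change 0.18, SE 0.080, adjusted p = 0.238). In both, the 5-OH-TMT libraries lay above the TNF-α ones, narrowly so for P4HA2.

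Groups that did not overlap were frequent although no gene was called. The 5-OH-TMT libraries lay wholly above the TNF-α libraries for 16 of the 36, where all genes gave 16.3%, and wholly below for 2 (PDK1 and LDHA), where all genes gave 15.5%. Of the 16, 8 were glycolytic enzymes (GPI, PFKL, PFKP, TPI1, GAPDH, PGK1, ENO1 and PKM), which include abundant genes that rise and fall together between libraries. The sum over the 15 enzymes was 5756 ± 317 FPKM with TNF-α and 6366 ± 204 FPKM with 5-OH-TMT. It was mostly GAPDH (means 2361 and 2677 FPKM) and ENO1 (1301 and 1436 FPKM). The exact permutation p of the sum was 0.1, the smallest possible, and only restates that the 2 groups did not overlap. The median log2 fold change of the 36 was 0.10 (0.00 over all genes), and it was 0.05 after quantile normalization. Epithelial markers, mostly KRT8 and KRT18, summed to 2299 to 2547 FPKM with TNF-α and 2544 to 2730 FPKM with 5-OH-TMT, overlapping slightly. The endothelial sum, mostly CDH5, was low and did not overlap (1.43 to 1.57 FPKM and 1.77 to 2.01 FPKM). The immune sum over 5 genes, mostly CD14, was lower still and did not overlap either (0.0711 to 0.145 FPKM and 0.179 to 0.307 FPKM). The part of these markers in the result was not tested. LDHA was at 537 to 566 FPKM with TNF-α and at 516 to 518 FPKM with 5-OH-TMT, a log2 fold change of -0.09 (95% interval -0.23 to 0.04).

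The genes that had responded to TNF-α gave intervals around 0. HK2 was at 21.2, 21.2 and 25.0 FPKM with 5-OH-TMT (log2 fold change -0.07, 95% interval -0.26 to 0.12). VEGFA had 0.10 (-0.05 to 0.25), and ANGPTL4 had -0.06 (-0.50 to 0.39), which leaves a sizeable change in either direction possible for ANGPTL4. HIF1A was at 27.9 to 32.6 FPKM against 32.4 to 36.4 FPKM with TNF-α (-0.21, -0.46 to 0.05).

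**Figure D4:**
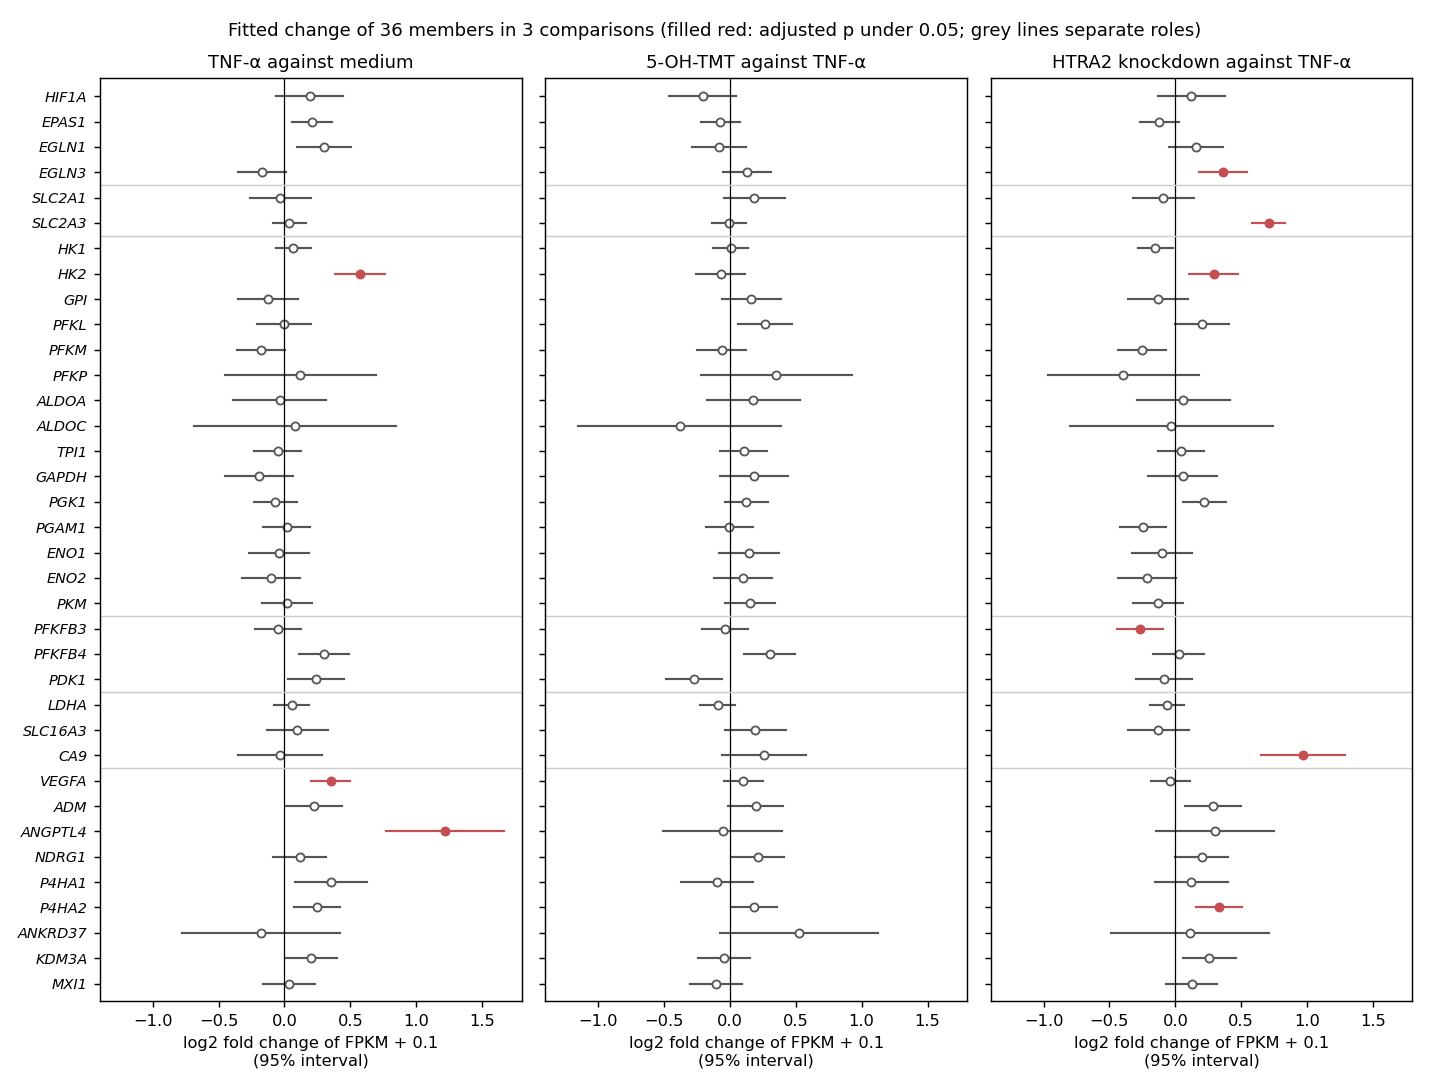
Fitted log2 fold change of FPKM plus 0.1 with its 95% interval for 36 genes, grouped by role (grey lines), in 3 comparisons. Filled red points have an adjusted p under 0.05, 3 for TNF-α, 0 for 5-OH-TMT and 6 for the knockdown. The latter comparisons share the TNF-α libraries.

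HTRA2 knockdown against TNF-α addressed the loss of the proposed target in TNF-α-treated cells. SLC2A3, CA9, EGLN3, P4HA2 and HK2 rose and PFKFB3 fell. These were 6 of 36 genes at a limma adjusted p under 0.05, where 17.4% of all genes tested were called (9.35% higher, 8.08% lower), so the number called was near the background of this comparison. No change reached 2-fold, which 4.23% of all genes did, though that of CA9 came close. At an unadjusted p under 0.05 there were 12 of 36, beside 31.1% of all genes.

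SLC2A3, a high-affinity glucose transporter, was at 20.3, 19.5 and 20.9 FPKM with TNF-α and at 33.8, 32.2 and 33.4 FPKM in the knockdown. The gap was many times the spread within either group (log2 fold change 0.71, SE 0.058, adjusted p = 1.78e-05). SLC2A1 did not share the change, at 102 to 119 FPKM with TNF-α and 87.3 to 119 FPKM in the knockdown (-0.09, 95% interval -0.32 to 0.14).

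CA9 encodes a cell-surface carbonic anhydrase that handles acid outside the cell. It was at 4.91, 4.44 and 5.20 FPKM (231 to 324 reads) with TNF-α and at 10.2, 9.51 and 9.05 FPKM (551 to 613 reads) in the knockdown. The log2 fold change was 0.97 (SE 0.15, adjusted p = 8.99e-04). CA9 (chr9:35673856-35681159, plus strand) shares 643 of its 1670 exon bases with the antisense gene ARHGEF39, and strand-aware counting is not given in the sources used here. ARHGEF39 was at a mean of 3.41 FPKM with TNF-α and 3.49 FPKM in the knockdown (log2 fold change 0.04, adjusted p = 0.834). Medium libraries had spread more widely for CA9, at 3.94, 6.55 and 4.71 FPKM.

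EGLN3, the hydroxylase that is itself a HIF target, was at 7.36, 8.28 and 8.52 FPKM with TNF-α and at 10.7, 9.48 and 10.9 FPKM in the knockdown (log2 fold change 0.36, SE 0.083, adjusted p = 0.0111). P4HA2 was at 10.02, 9.73 and 10.3 FPKM in the knockdown, above each of the TNF-α libraries given earlier (0.33, SE 0.080, adjusted p = 0.0136). HK2 was at 28.5, 30.1 and 27.8 FPKM, its highest group (0.29, SE 0.085, adjusted p = 0.0352). These 3 changes were all smaller than that of SLC2A3.

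PFKFB3, a paralog of PFKFB4, was at 5.18, 5.89 and 6.12 FPKM with TNF-α and at 4.69, 4.63 and 4.87 FPKM in the knockdown (log2 fold change -0.27, SE 0.079, adjusted p = 0.0362). It was the only called gene that fell. The calls of SLC2A3, CA9 and EGLN3 held when any of the 6 libraries was left out, whereas HK2 lost its call with each library left out in turn (adjusted p 0.0548 to 0.11) and P4HA2 without TNF-α replicate 2 (0.0615). PFKFB3 lost it in 5 of the 6, that is, except without TNF-α replicate 1. Without TNF-α replicate 2, 3 genes were called in place of 6.

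Several glycolytic enzymes came near the threshold in both directions. PGK1, which makes ATP from 1,3-bisphosphoglycerate, was at 348 to 363 FPKM with TNF-α and 390 to 442 FPKM in the knockdown (0.22, adjusted p = 0.064). PGAM1, the next enzyme in the chain, was at 301 to 338 FPKM and 253 to 289 FPKM (-0.25, adjusted p = 0.0562). PFKM was at 11.1 to 12.3 FPKM and 9.67 to 9.76 FPKM (-0.25, adjusted p = 0.0588). In all 3 the groups did not overlap. PFKM shares 628 exon bases with SENP1 on the opposite strand. SENP1 had a log2 fold change of -0.28 (limma adjusted p = 0.0769), and the part of shared reads was not tested. The sum over the 15 enzymes was 5756 ± 317 FPKM with TNF-α and 5748 ± 579 FPKM in the knockdown (exact p = 1).

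Across the 36 genes, knockdown libraries lay wholly above TNF-α for 8 and wholly below for 4 (HK1, PFKM, PGAM1 and PFKFB3), where all genes gave 17.5% and 16.4%. The median log2 fold change was 0.05, beside -0.003 over all genes. ADM, a vasodilator peptide (0.29, adjusted p = 0.0627), and KDM3A, a histone demethylase (0.26, adjusted p = 0.0705), did not pass. LDHA had -0.06 (95% interval -0.20 to 0.07) and VEGFA -0.04 (-0.19 to 0.11). Fibroblast markers summed over 4 genes to 1.001 to 1.32 FPKM with TNF-α and 2.60 to 3.21 FPKM in the knockdown. Nearly all of that sum was COL1A1, at 0.97 to 3.21 FPKM over the 12 libraries. COL1A2 and PDGFRB did not exceed 0.0279 and 0.027 FPKM, and DCN was listed at 0 throughout. Endothelial markers, mostly CDH5, summed to 1.43 to 1.57 FPKM and 2.21 to 3.62 FPKM. The part of both sets of markers in these results was not tested.

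HTRA2 knockdown against 5-OH-TMT set the 2 treatments side by side, both on TNF-α. SLC2A3, CA9, HK2 and KDM3A were higher in the knockdown and PKM was lower, 5 of 36 genes called where 15.3% of all genes were (7.85% higher, 7.43% lower). None reached 2-fold, beside 3.19% of all genes, and 20 of 36 had an unadjusted p under 0.05, beside 29.7% of all genes. SLC2A3 was at 19.4, 20.1 and 21.0 FPKM with 5-OH-TMT, the level of medium and of TNF-α alone (log2 fold change 0.71, SE 0.058, adjusted p = 3.73e-05). CA9 was at 6.25, 5.56 and 5.68 FPKM with 5-OH-TMT (0.71, SE 0.15, adjusted p = 0.00843). These were the only calls that held with every library left out in turn.

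HK2 differed by 0.36 (SE 0.085, adjusted p = 0.0161) and lost the call without 5-OH-TMT replicate 1 or 2 or knockdown replicate 2 (adjusted p 0.0517 to 0.0715). KDM3A was at 4.45, 3.94 and 4.22 FPKM with 5-OH-TMT and 5.46, 5.44 and 4.75 FPKM in the knockdown (0.30, SE 0.091, adjusted p = 0.0426). PKM, which makes pyruvate and ATP in the last step, was at 719, 735 and 705 FPKM with 5-OH-TMT and 590, 548 and 641 FPKM in the knockdown (-0.28, SE 0.087, adjusted p = 0.0484). Both kept their call in only 1 of the 6 fits with a library left out, the one without knockdown replicate 3. The number called was 2 without 5-OH-TMT replicate 1, 5-OH-TMT replicate 2 or knockdown replicate 2, 3 without 5-OH-TMT replicate 3 or knockdown replicate 1, and 10 without knockdown replicate 3.

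The 2 treatments were often apart without a call. The knockdown lay wholly above 5-OH-TMT for 11 of the 36 and wholly below for 12, where all genes gave 18.2% and 17.6%, and 8 of the 12 were glycolytic enzymes. The sum over the 15 enzymes was 6366 ± 204 FPKM with 5-OH-TMT and 5748 ± 579 FPKM in the knockdown (exact p = 0.2). RNA of SLC16A3, a monocarboxylate transporter that exports lactate, was at 23.1 to 23.7 FPKM with 5-OH-TMT and 15.5 to 20.8 FPKM in the knockdown (-0.32, adjusted p = 0.0609). The median over the 36 was -0.05 (0.01 over all genes), 0.03 without knockdown replicate 2 and 0.08 after quantile normalization. Marker sums were apart here too. For epithelial genes (mostly KRT8 and KRT18) they were at 2544 to 2730 FPKM with 5-OH-TMT and 2160 to 2432 FPKM in the knockdown. For fibroblast genes (nearly all COL1A1, DCN listed at 0) they were at 1.15 to 1.46 FPKM and 2.60 to 3.21 FPKM. For endothelial genes (mostly CDH5) they were at 1.77 to 2.01 FPKM and 2.21 to 3.62 FPKM. The part of these markers was not tested.

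The proportions of paralogs within a step were compared by library. HK2 made up 31.2%, 29.4% and 28.3% of summed HK1 and HK2 FPKM in the medium libraries and 37.9%, 38.2% and 36.3% in the TNF-α libraries. The share was 35.7%, 34.7% and 38.3% in the 5-OH-TMT libraries and 46.0%, 46.1% and 42.6% in the knockdown libraries. The TNF-α share lay above medium and below the knockdown without overlap, and overlapped that of 5-OH-TMT. PFKL made up 69.8% ± 0.598 of phosphofructokinase for medium, 72.2% ± 0.576 for TNF-α, 76.3% ± 1.18 for 5-OH-TMT and 78.2% ± 1.81 for the knockdown (SD, n = 3), where the last 2 overlapped. PFKFB4 made up 48.3% ± 2.03, 54.4% ± 1.04, 60.2% ± 1.15 and 59.5% ± 0.187 of PFKFB3 and PFKFB4 in the same order, again with only the last 2 groups overlapping. SLC2A3 was 15.6% ± 1.505 of the transporter sum with TNF-α and 24.4% ± 2.51 in the knockdown. EGLN3 was 62.5% ± 3.04 of the EGLN1 and EGLN3 sum in medium and 54.6% ± 1.45 with TNF-α. Its share was 58.3% ± 1.21 with 5-OH-TMT, above TNF-α without overlap, and 58.0% ± 3.82 in the knockdown, which overlapped TNF-α. P4HA2 was 28.6% ± 1.65 of the P4HA1 and P4HA2 sum with TNF-α and 32.8% ± 0.771 with 5-OH-TMT, without overlap. Each difference between groups that did not overlap had an exact two-sided permutation p of 0.1, the smallest that 3 against 3 allows, and 0.24 after Benjamini-Hochberg adjustment over the 48 comparisons of shares.

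**Figure D5:**
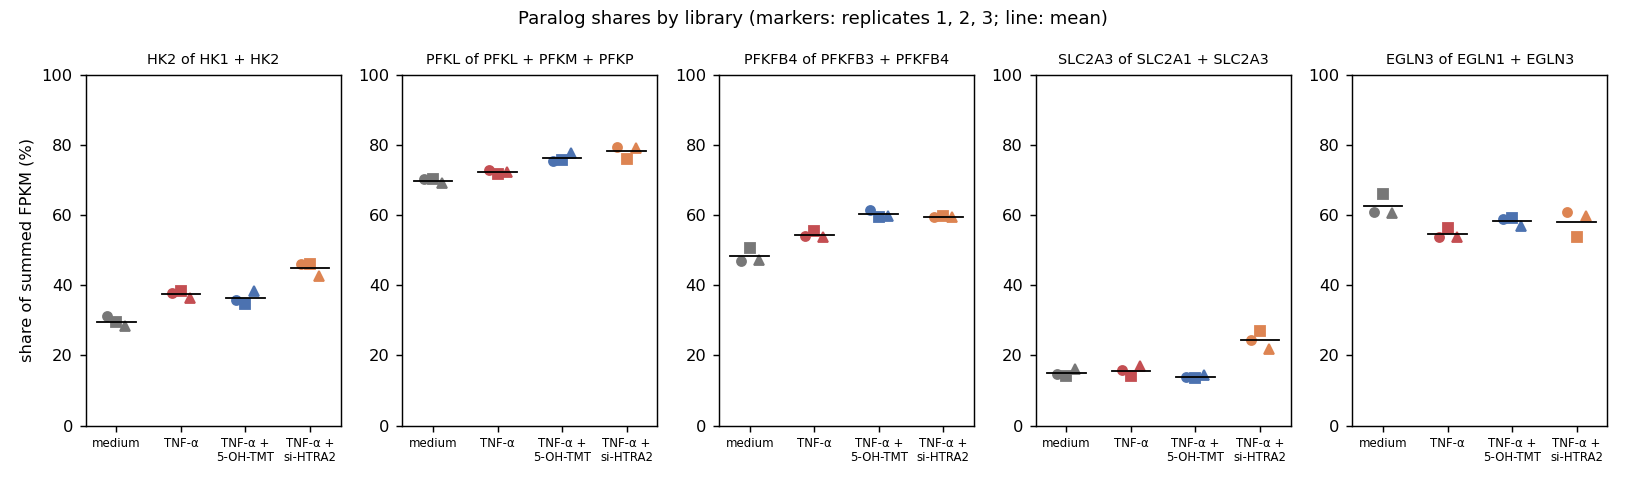
Share of 1 paralog in the summed FPKM of its family in each library (percent, axis from 0 to 100), with the mean of each group as a line. The HK2 share is 29.6% for medium, 37.5% for TNF-α, 36.2% for 5-OH-TMT and 44.9% for the knockdown.

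Other genes of the pathway were read from 3 further lists, 19 of 28 glycolysis and pyruvate genes, 12 of 13 HIF pathway components and 25 of 26 HIF targets having passed the filter. With TNF-α, 0 of the 19, 1 of the 12 and 4 of the 25 were called by limma, all higher, beside 3.22% of all genes called higher. The component was VHL, the subunit that binds hydroxylated HIF-α, at 11.9 to 12.4 FPKM in medium and 19.8 to 21.4 FPKM with TNF-α (log2 fold change 0.75, adjusted p = 1.15e-04). Among the targets were EDN1, the vasoconstrictor endothelin (1.71, adjusted p = 0.00291), IGFBP3, a binding protein of insulin-like growth factors (0.88, adjusted p = 2.26e-04), and STC2, a secreted glycoprotein (0.54, adjusted p = 0.00722). With 5-OH-TMT, limma called none of the 56 on these lists, and 14 had an unadjusted p under 0.05, where all genes gave 0.0387% and 20.1%.

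In the knockdown against TNF-α, 1 of the 19 glycolysis and pyruvate genes rose and 3 fell, where 9.35% of all genes were called higher and 8.08% lower, so that the counts of this list and of the 12 components below stand near the background. BPGM, which diverts 1,3-bisphosphoglycerate (0.45, adjusted p = 0.0388), rose, while the mitochondrial pyruvate carrier subunit MPC1 (-0.42, adjusted p = 0.0236) and the kinase PDK3 (-0.35, adjusted p = 0.0237) fell, as did LDHB. Of the 12 components, VHL rose again (0.27, adjusted p = 0.0341) and ELOC, its elongin partner, fell (-0.23, adjusted p = 0.0314). Of the 25 targets, 6 rose and 3 fell, led by EDN1, at 1.03 to 1.55 FPKM with TNF-α and 3.87 to 4.40 FPKM in the knockdown (1.68, adjusted p = 0.00139), and LOX, the collagen cross-linking oxidase, at 1.60 to 2.27 FPKM and 3.98 to 4.44 FPKM (1.12, adjusted p = 3.73e-04). BHLHE41, a transcriptional repressor, followed (0.84, adjusted p = 0.0127). STC2, JMJD6 and DDIT4 fell. STC2 and JMJD6 had risen with TNF-α and were lower in the knockdown, whereas EDN1 and IGFBP3 were higher in both comparisons, which share the TNF-α libraries.

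Against 5-OH-TMT, the knockdown was higher for 2 of the 19 (BPGM at 0.56 and PGM2 at 0.38) and for VHL (0.34). It was also higher for 6 of the 25 targets, led by EDN1 (1.90, limma adjusted p = 0.00107), LOX (1.25, adjusted p = 3.11e-04) and INSIG2 (0.59, adjusted p = 0.0202). It was lower for ARNT2 (-0.57, adjusted p = 0.0237) and for 5 of the 25 targets, among them DDIT4, an mTORC1 inhibitor. All genes gave 7.85% higher and 7.43% lower, close to the counts of the 2 shorter lists.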

How the data were processed

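RNA from 12 NCM460 libraries (4 groups of 3) was poly(A)-selected and sequenced by the authors, who deposited FPKM values for each gene in each library, with gene lengths. The submitters' processing notes name CASAVA 1.8, HISAT2 2.0.4, HTSeq 0.9.1 and hg38, without role or order, and strandedness is not given in the sources used here. FPKM scales by gene length and library total, so a gene's value can move when abundant genes move. Gene coordinates were those of GENCODE 29. Each value times length was a whole multiple of 1 read (100% of values, tolerance 0.05), which gave the reads per library. With 3 reads as the floor, a gene of 1 kb was limited to 0.0805 to 0.0962 FPKM, a counting limit only. Pairs of libraries of 1 group differed beyond counting noise (chi-square per degree of freedom 7.35 to 45.4 over 12 pairs).

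Groups came from the labels, with the knockdown libraries taken as also given TNF-α. The 18079 genes averaging at least 0.1 FPKM were fitted on the log2(FPKM + 0.1) scale with limma 3.58.1 in R 4.3.3 (all 4 groups, moderated variance with trend), and p-values were adjusted by Benjamini-Hochberg over all genes tested. A call is an adjusted p under 0.05, and a 2-fold change was read with an unadjusted p of at most 0.05, the study's rule. Sums and shares were compared by exact permutation tests. Full values were given for called genes with a mean of at least 1 FPKM, and, where fewer than 3 qualified, for the 5 with the smallest unadjusted p. From each further list at most the 3 called genes of largest change were given with values. The fit was tested on simulated data. Alternatives changed the pseudocount, filter, scaling, samples fitted, variance model and replicate block, used recovered reads (voom), or left out each library. The genes, lists and tests were chosen with earlier results of these data known. Promoter stretches and their coordinates came from RefSeq (GRCh38.p14).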

Additional observations from a re-analysis of the deposited data

How the results depend on the processing

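Of 304 values of 19 named gene results under the alternatives, 263 kept their direction and side of the threshold, 40 lost the call, 1 gained it and 0 changed direction. The number called with TNF-α stayed between 2 and 4, while 1.91% to 6.87% of all genes were called. With 5-OH-TMT it was 0 except for 2 when the 2 groups were fitted alone (5.04% of all genes called). The median log2 fold change there fell from 0.102 to 0.0463 after quantile normalization. In the knockdown against TNF-α, 6 genes became 10 at a mean of at least 1 FPKM (27.9% of all genes called, beside 17.4%). They also became 10 after quantile normalization (19.1% of all genes), and 3 to 6 with a library left out (11.1% to 18.5%). In the knockdown against 5-OH-TMT, 5 became 3 with no filter, 9 at a mean of at least 1 FPKM, 10 after quantile normalization, 3 without the variance trend, 13 by voom on recovered reads (6.4%, 26%, 16%, 11.8% and 18.6% of all genes called, beside 15.3%), and 2 to 10 with a library left out (7.27% to 15% of all genes), while the median of -0.0543 became 0.0755 after quantile normalization and ranged from -0.0939 to 0.0268 with a library left out. For changes of scaling or variance model the cause was not tested. Depth limits CA12, ALDOC, PFKP and ANKRD37. ANGPTL4, called with TNF-α, was also low, at 31 to 148 reads per library.

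Over all genes tested, same-numbered libraries did not deviate together (correlation of deviations from group means -0.104 to 0.0382 over 18 pairs). The abundant genes did share an order by number in medium, TNF-α and 5-OH-TMT. Replicate 2 was mostly highest and replicate 3 mostly lowest there, but not in the knockdown. Whether the numbers mark a shared batch was not tested. With the replicate block (11.4% of all genes called in the knockdown against 5-OH-TMT), 3 genes were called with TNF-α, 0 with 5-OH-TMT, 5 in the knockdown against TNF-α (without HK2, adjusted p = 0.0656) and 3 in the knockdown against 5-OH-TMT (without KDM3A, 0.0521, and PKM, 0.0819). Over all genes, calls with 5-OH-TMT numbered 7, and 1 (replicate block) to 911 (2 groups alone) under the alternatives.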
